A study of Mus musculus with 10 samples.

Results

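The genes described here are the 158 mouse genes named Zfp with a number (Zfp433, Zfp36 and so on) whose array signal in total RNA of the embryonic cortex was 6.5 or more, as the mean log2 value on inputs 2, 3 and 4. They were picked from 362 genes with such a name and from 22180 genes with a symbol of their own on the array. The other 204 Zfp genes lay under 6.5. The level on inputs 2, 3 and 4 chose the genes, so it is described below without a test. The 3 genes nearest above the threshold were Zfp866, Zfp773 and Zfp606, all at 6.51. The 3 nearest below it were Zfp974 at 6.49 and Zfp14 and Zfp58, both at 6.47.

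The RNA came from freshly dissected cortices of mouse embryos of the CD1 strain, aged E12-13 (embryonic days 12 to 13), and the labels name no genetic change or drug in any group. Affymetrix Mouse Gene 2.0 ST arrays were hybridised with RNA that an anti-4E-T antibody brought down in a Magna RIP precipitation (arrays 4E-T 1, 2 and 3), with RNA that control IgG brought down (IgG 2, 3 and 4), and with total tissue RNA, the input (inputs 1 to 4). The design text calls the samples biological replicates. Whole cortices were used, so each sample mixes the cell types of the tissue, and fewer cells of a type and less RNA per cell cannot be told apart. The number of embryos behind each sample was not given in the sources used here.

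4E-T is a protein that binds the cap-binding factor eIF4E, holds back translation of the bound mRNA and gathers in P-bodies, granules that hold silent mRNAs. Most Zfp genes encode C2H2 zinc finger proteins, in which repeated fingers held by zinc read DNA sequence. Many of them also carry a KRAB domain, which recruits Trim28 and, through it, enzymes that lay down repressive chromatin. The name marks the zinc finger and not the role. Zfp36 binds RNA through fingers of another type, and Zfp598 is a ubiquitin ligase that acts on collided ribosomes.

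Values are RMA log2 signals, and levels of different genes are not compared as amounts, since each probe set has its own brightness. Input 1 and 4E-T 1 lay on a lower scale, with medians over all probe sets of 3.54 and 3.52, against 4.33 to 4.54 on the other 8 arrays. No IgG array lay on the lower scale. The differences below come from a limma fit of all 10 arrays with a term for that lower set, and a gene was called at an adjusted p under 0.05 over all 22180 genes. In that fit the input arrays help to estimate the lower scale. Values from the other 8 arrays alone, where the difference of 4E-T and IgG holds no input value, are therefore given beside the main counts. Against markers of the labelled tissue, 7 measured genes of cortical precursors had a median at percentile 86.7 of all genes by input signal, and 6 genes of intermediate progenitors and neurons at percentile 96.6. The 1 measured erythroid gene, Hbb-y, lay at percentile 99.1, and 4 genes of liver and heart had a median at percentile 34.8. These ranks compare the brightness of different probe sets and describe the signal only.

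The comparison of 4E-T with IgG asks which RNAs were relatively richer with the 4E-T antibody than with a control antibody. Of the 158 Zfp genes, 52 (32.9%) were called higher in the 4E-T precipitate and 3 (1.90%) lower. Over all genes tested, 7.57% were called higher and 2.92% lower. Of the 6408 other genes with an input level of 6.5 or more, 1036 (16.2%) were called higher and 338 (5.27%) lower. The median difference of the Zfp genes was 0.34, with quartiles of 0.04 and 0.78 and a range from -0.76 (Zfp704) to 2.23 (Zfp433). The median was 0.15 for the other genes of that level and 0.03 for all genes. The difference was above 0 for 125 Zfp genes (79.1%, against 63.2% of other genes of the level and 53.7% of all genes) and above 1 for 22 (13.9%, against 4.09% and 2.24%).

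**Figure D1:**
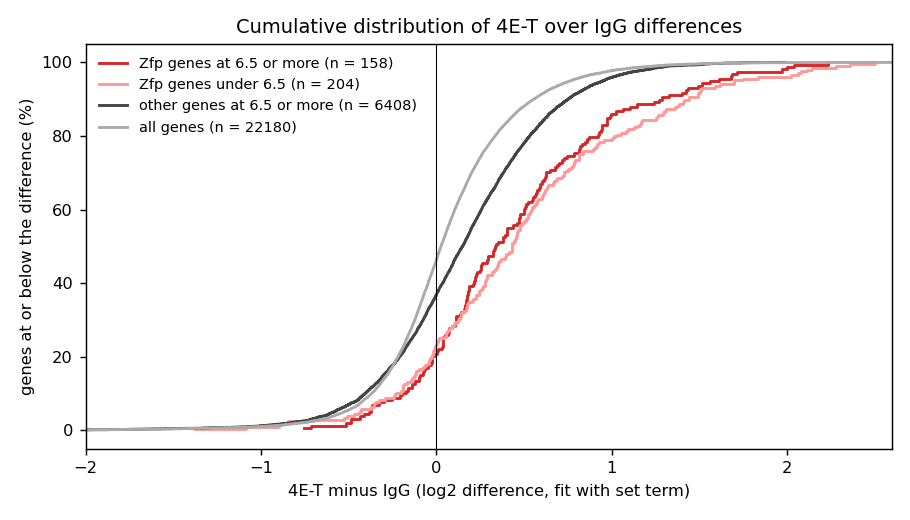
Cumulative percentage of genes (vertical axis) at or below each 4E-T minus IgG log2 difference (horizontal axis, fit with the set term, drawn from -2 upward) for 4 groups of genes. The lines of both Zfp groups lie to the right of the others over most of the range, with medians of 0.34 at an input level of 6.5 or more and 0.43 under 6.5, against 0.15 for other genes at 6.5 or more and 0.03 for all genes.

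On the 8 arrays outside the lower set, 45 of the Zfp genes were called higher (6.29% of all genes) and 2 lower (2.33% of all genes), with a median of 0.33. On these deposited values, 4E-T 2 and 3 both lay above all 3 IgG arrays for 88 Zfp genes (55.7%), a pattern held by 23% of all genes and 40.0% of other genes at 6.5 or more. They both lay below for 14 (8.86%), against 15.1% of all genes and 19.3% of the others at 6.5 or more. With group alone in the fit of all 10 arrays, 16 Zfp genes (10.1%) were called higher and 0 lower, with 7 lower at an unadjusted p under 0.05. Of other genes at 6.5 or more, 1.37% were called higher and 1.05% lower. Over all genes the shares were 0.708% and 0.64%. In that fit the lower scale of 4E-T 1 counts as spread, and the median of all genes moved to -0.19. Without 4E-T 2 the set-term fit called 30 Zfp genes higher, and without 4E-T 3 it called 31.

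The same ordering of the groups was seen on single arrays when the Zfp genes were set against the other genes of their input level. The median of the Zfp genes minus that of the others was -0.49, -0.43, -0.44 and -0.43 on inputs 1 to 4. It was -0.05, -0.14 and -0.14 on IgG 2, 3 and 4, and 0.22, 0.23 and 0.17 on 4E-T 1, 2 and 3. The groups did not overlap, and input 1 and 4E-T 1 lay with their own groups despite their lower scale. This difference within an array removes only the part of that scale that shifts both sets of genes equally. The place of the inputs is a description, because the level on inputs 2, 3 and 4 chose the genes.

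**Figure D2:**
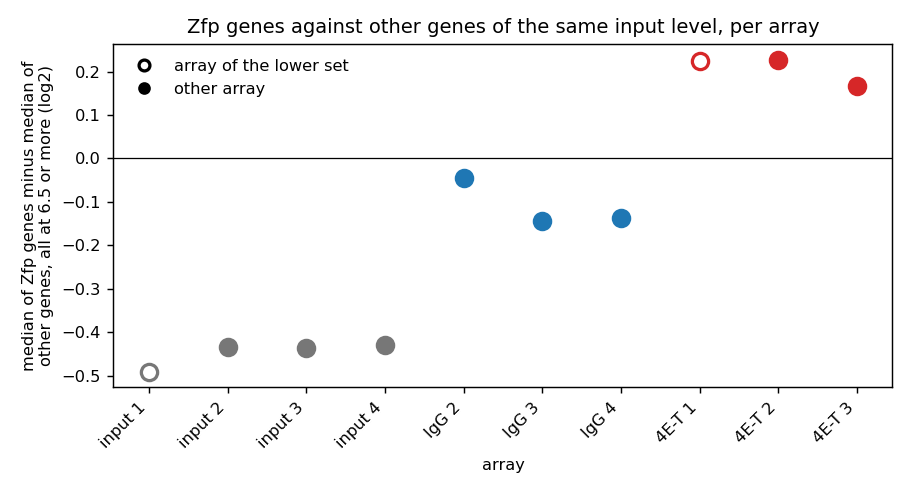
Median log2 value of the 158 Zfp genes minus the median of the 6408 other genes with an input level of 6.5 or more (vertical axis), for each array (horizontal axis), with open symbols for the arrays of the lower set. The inputs lie between -0.49 and -0.43, the IgG arrays between -0.14 and -0.05 and the 4E-T arrays between 0.17 and 0.23.

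Cortical precursor markers had a higher list mean in 4E-T than in IgG and input. For them the IgG and input arrays overlapped, unlike for the Zfp medians above. Of the 7 precursor markers measured, 5 were called higher in 4E-T than in IgG (Emx1, Emx2, Sox2, Nes and Hes5). Over all genes 7.57% were called higher, and 16.2% of other genes at 6.5 or more. Pax6 (0.18, adjusted p = 0.577) and Vim (0.15, adjusted p = 0.638) were not called. The list mean on the 8 arrays was 9.02 to 9.19 in 4E-T, 8.35 to 8.39 in IgG and 8.38 to 8.60 in input. Of the 6 markers of intermediate progenitors and neurons, Neurog2 was called higher and Dcx lower. Endothelial markers and ventral interneuron markers had 1 gene of 4 called higher each. The endothelial list mean on the 8 arrays was 5.56 to 5.71 in 4E-T and 4.72 to 5.06 in IgG. That of ventral interneuron markers was 5.65 to 5.68 in 4E-T and 5.11 to 5.44 in IgG. A higher list mean was thus not particular to precursors. For the remaining lists the 4E-T and IgG ranges overlapped. The lists of mesenchyme, microglia and liver and heart, with 4 genes each, and the 1 measured erythroid gene had 0 called and 1 of 13 at an unadjusted p under 0.05. The part of these markers in the Zfp result was not tested.

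Zfp433, a zinc finger gene, showed the largest difference. It had values of 6.28, 6.61, 6.89 and 6.75 on inputs 1 to 4, 7.83, 6.78 and 5.60 on IgG 2, 3 and 4, and 8.28, 9.08 and 8.95 on 4E-T 1, 2 and 3. All 4E-T values lay above all others, and the IgG arrays spread more widely than any other group of this gene. The difference of 4E-T and IgG was 2.23 ± 0.42 (SE), a fold of 4.70 (adjusted p = 0.00665).

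Zfp599 had 6.62, 6.76, 6.80 and 7.77 on inputs 1 to 4, 6.69, 6.51 and 6.22 on IgG 2, 3 and 4, and 8.40, 8.26 and 8.60 on 4E-T 1, 2 and 3. The 4E-T arrays were highest and input 4 stood apart from the other inputs. The difference was 2.04 ± 0.27, a fold of 4.10 (adjusted p = 0.000949).

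Zfp105 had 6.43, 7.07, 7.01 and 6.76 on inputs 1 to 4, 5.99, 6.46 and 6.10 on IgG 2, 3 and 4, and 8.24, 8.09 and 8.04 on 4E-T 1, 2 and 3. Here the IgG arrays were low as well: IgG lay 0.68 below input in the fit and 4E-T 1.32 above it. The difference of 4E-T and IgG was 2.00 ± 0.19 (adjusted p = 0.000201).

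Zfp39 had 7.54, 7.55, 7.68 and 7.85 on inputs 1 to 4, 7.91, 7.10 and 7.92 on IgG 2, 3 and 4, and 9.29, 9.60 and 9.69 on 4E-T 1, 2 and 3. Input and IgG overlapped, and 4E-T was apart from both. The difference was 1.97 ± 0.22 (adjusted p = 0.000339). A second probe set of the gene gave 1.98 on the 8 arrays, against 2.00 for the one used.

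Zfp958 had 7.21, 7.15, 7.20 and 7.45 on inputs 1 to 4, 7.67, 7.68 and 7.81 on IgG 2, 3 and 4, and 9.17, 9.53 and 9.36 on 4E-T 1, 2 and 3. For this gene the groups formed 3 steps without overlap, with IgG 0.43 above input and 4E-T 2.12 above input. The difference of 4E-T and IgG was 1.69 ± 0.15 (adjusted p = 0.000133).

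Zfp948 ranked just above Zfp958, at 1.71 ± 0.24 (adjusted p = 0.00141), and Zfp267 (1.68 ± 0.17, adjusted p = 0.000229) and Zfp418 (1.61 ± 0.16, adjusted p = 0.000215) ranked just below it. Zfp811, Zfp35, Zfp553 and Zfp623 followed with differences of 1.56, 1.51, 1.49 and 1.43, standard errors of 0.17 to 0.19 and adjusted p-values of 0.000406 to 0.000657. For all 12 of these genes each 4E-T array lay above every IgG array, 4E-T 1 included.

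**Figure D3:**
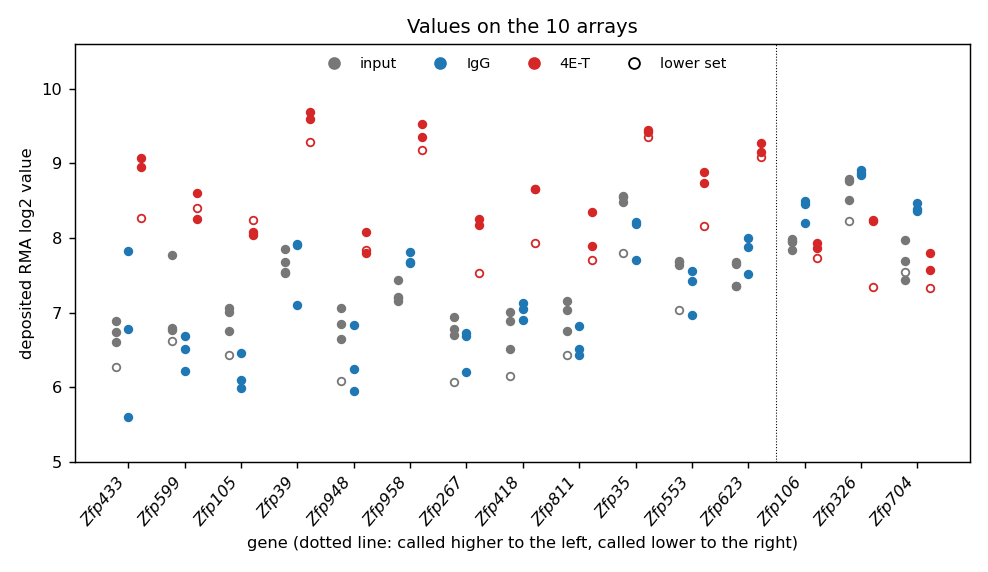
Deposited log2 value (vertical axis) on each of the 10 arrays for the 12 Zfp genes with the largest called differences and the 3 called lower (horizontal axis), 1 point per array, with open points for input 1 and 4E-T 1. The 4E-T points lie above the IgG points for the 12 genes to the left of the dotted line and below them for Zfp106, Zfp326 and Zfp704.

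All 52 genes called higher had 4E-T 2 and 3 above every IgG array, as had 23% of all genes. Of the 52, 38 also had 4E-T 1 above every IgG array in spite of its lower scale. Within the lower set, 4E-T 1 lay above input 1 for 51 of the 52, against 49.3% of all genes. The exception was Zfp346 at -0.12. The calls came from a fit of these same arrays, 4E-T 1 and input 1 included. These counts therefore describe the called genes and carry no test. The calls held in each of the 10 fits without 1 array for 28 of the 52. The fits without input 1 and without 4E-T 1 give the same differences of 4E-T and IgG as the 8 arrays. In both, the set term takes up the 1 array left in the lower set. Both are counted in the numbers of arrays given below, so that result counts more than once. At the low end of the called genes, Zfp687, Zfp821, Zfp518b, Zfp799, Zfp790, Zfp142, Zfp334, Zfp760 and Zfp608 differed by 0.55 to 0.68. Of these, Zfp608 kept its call without any 1 array. The call was lost without 10 of the 10 arrays taken singly for Zfp687 (adjusted p of 0.0505 to 0.131), without 8 for Zfp518b, and without 7 each for Zfp821 and Zfp799. It was lost without 5 for Zfp334, 4 for Zfp142 and 2 each for Zfp790 (4E-T 2 or IgG 3) and Zfp760 (4E-T 2 or 3), with adjusted p-values up to 0.206.

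Zfp genes that were not called numbered 103, with differences from -0.49 to 0.83, and 28 of them had an unadjusted p under 0.05. The highest was Zfp946, chosen after its values were seen. It had 6.09, 4.48 and 5.54 on IgG 2, 3 and 4 and 6.21, 6.08 and 6.37 on 4E-T 1, 2 and 3, a difference of 0.83 (adjusted p = 0.152). The IgG arrays overlapped with 4E-T and spread over more than 1 log2 unit.

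The Zfp genes called lower with 4E-T were 3. Zfp704 had 7.55, 7.70, 7.43 and 7.97 on inputs 1 to 4, 8.39, 8.37 and 8.47 on IgG 2, 3 and 4, and 7.33, 7.81 and 7.57 on 4E-T 1, 2 and 3. The 4E-T and input arrays overlapped while the IgG arrays were higher than both. The difference of 4E-T and IgG was -0.76 ± 0.17 (adjusted p = 0.0147), and without 4E-T 3 the call was lost (adjusted p = 0.0914).

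Zfp326, a protein of the complex that links RNA polymerase II elongation to splicing, had 8.23, 8.79, 8.76 and 8.51 on inputs 1 to 4. It had 8.87, 8.91 and 8.84 on IgG 2, 3 and 4 and 7.35, 8.24 and 8.22 on 4E-T 1, 2 and 3. Here 4E-T was below IgG on each array and, at equal scale, below the inputs. The difference of 4E-T and IgG was -0.72 ± 0.15 (adjusted p = 0.0119), and the call held without any 1 array.

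Zfp106, an RNA-binding protein needed by motor neurons, had 7.95, 7.99, 7.97 and 7.83 on inputs 1 to 4, 8.45, 8.20 and 8.50 on IgG 2, 3 and 4, and 7.73, 7.94 and 7.86 on 4E-T 1, 2 and 3. The difference was -0.52 ± 0.14 (adjusted p = 0.0417). This call was weak: it was lost without any array but IgG 3 (adjusted p of 0.053 to 0.156), and a second probe set gave -0.11 on the 8 arrays, against -0.48 for the one used.

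Promoters of 3 of the genes are shown as examples of sequences that the choice of the 158 genes did not use. RefSeq promoter windows (GRCm38.p6, 250 bases before to 50 after a start) were found for 130 of the 158 genes, with 163 windows in all. The stretches below hold the 250 bases before the start, read 5′ to 3′ on the gene's strand, and capitals mark the letters CCGGAAGT or their reverse complement, the core of sites bound by ETS factors. Zfp433 and Zfp60, both called higher, were picked with the letters and Zfp326, called lower, without them, so the contrast shown is one of choice. Among the genes called higher, 6 of the 44 with a window hold the letters.
Zfp433, chr10:81704575-81704824, + strand: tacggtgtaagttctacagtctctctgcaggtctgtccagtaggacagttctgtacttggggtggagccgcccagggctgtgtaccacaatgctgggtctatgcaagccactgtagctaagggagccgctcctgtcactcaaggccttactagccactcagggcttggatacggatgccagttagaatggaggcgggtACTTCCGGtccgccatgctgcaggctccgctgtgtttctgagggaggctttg
Zfp60, chr7:27731159-27731408, + strand: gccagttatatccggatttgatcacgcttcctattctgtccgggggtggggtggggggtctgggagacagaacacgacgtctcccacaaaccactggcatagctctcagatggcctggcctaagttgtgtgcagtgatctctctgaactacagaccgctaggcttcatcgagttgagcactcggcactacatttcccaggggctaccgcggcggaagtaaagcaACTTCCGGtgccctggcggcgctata
Zfp326, chr5:105876318-105876567, + strand: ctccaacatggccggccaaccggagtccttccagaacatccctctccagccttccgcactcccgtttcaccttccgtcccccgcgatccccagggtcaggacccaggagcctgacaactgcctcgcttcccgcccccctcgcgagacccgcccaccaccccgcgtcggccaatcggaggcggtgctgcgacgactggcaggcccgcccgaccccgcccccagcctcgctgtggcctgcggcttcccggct

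Zfp60 had 7.56, 8.29, 8.29 and 8.17 on inputs 1 to 4, 8.45, 8.65 and 8.97 on IgG 2, 3 and 4, and 9.07, 9.79 and 9.81 on 4E-T 1, 2 and 3, a difference of 1.11 ± 0.16 (adjusted p = 0.00149). It is named for its promoter and was chosen after its values were seen. Letters were searched on both strands of the whole windows. CCGGAAGT or ACTTCCGG stood in 11.7% of the windows of the Zfp genes, in 9.60% of those of other genes at 6.5 or more and in 3.89% of all 32851 windows. Among the Zfp windows the share was 15.1% of 53 for genes called higher and 10.2% of 108 for genes not called.

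The letters GGGCGG, a GC box, stood in 52.8% of the Zfp windows, 66.8% of those of other genes at 6.5 or more and 35.7% of all windows. The median number of CG pairs in a window was 16, 23 and 7 in the same order. TATAAA stood in 9.20%, 6.37% and 13.6%, and CAGCTG, an E-box, in 15.3%, 13.3% and 16.3%. None of these motifs contains another of them. Several windows can belong to 1 gene, and a match is a description of the letters only.

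Against input, both precipitates were set beside the same 4 arrays, of which inputs 2, 3 and 4 chose the genes, so the values carry no test. The median of the Zfp genes was 0.59 for 4E-T minus input and 0.25 for IgG minus input. For other genes at 6.5 or more these medians were -0.01 and -0.14, and for all genes 0.04 and 0.03. In 4E-T 128 of the Zfp genes (81.0%, against 56.1% of all genes) lay above input, and in IgG 103 (65.2%, against 53.5%). Within the lower set the median of 4E-T 1 minus input 1 was 0.61 for the Zfp genes and -0.02 for the others at 6.5 or more, with 126 Zfp genes above 0 (79.7%, against 49.3% of all genes).

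For the 52 genes called higher than IgG, the median was 1.12 for 4E-T minus input and 0.04 for IgG minus input. For the genes not called these medians were 0.37 and 0.27. The 52 were picked for a large difference of 4E-T and IgG, which by itself draws their medians apart. The counts that follow are therefore a description. IgG lay within 0.5 of input for 36 of them, and 4E-T lay more than 1 above input for 34. Both precipitates were above input for 27 genes, as with Zfp958, while IgG was below input for 25, as with Zfp105. Zfp189, chosen here after its values were seen, shows the second form with 7.32, 7.33 and 7.69 on inputs 2, 3 and 4, 6.85, 6.21 and 6.79 on IgG 2, 3 and 4 and 7.80 and 7.94 on 4E-T 2 and 3.

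**Figure D4:**
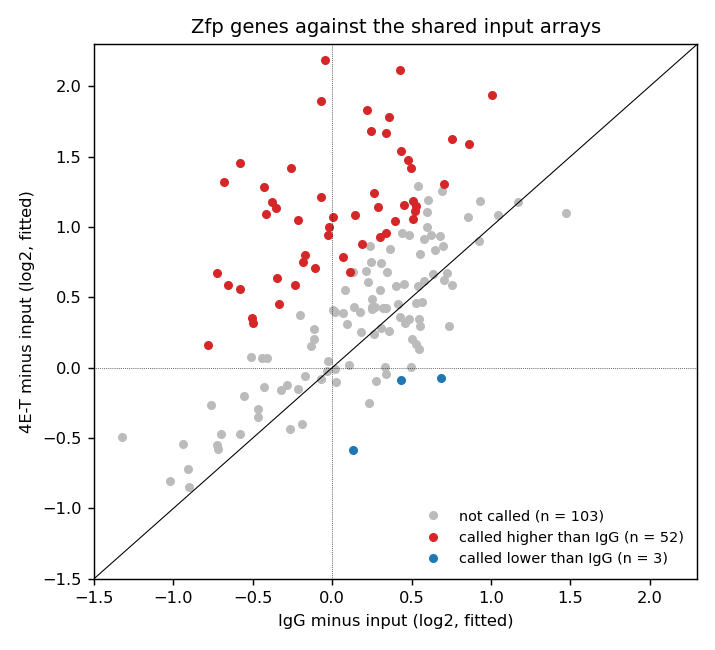
Fitted log2 difference of 4E-T and input (vertical axis) against that of IgG and input (horizontal axis) for the 158 Zfp genes, 1 point per gene, coloured by the call of 4E-T over IgG, with the diagonal where both are equal. Both axes share the input arrays, and the height above the diagonal is the 4E-T minus IgG difference. The 52 genes called higher lie above the diagonal on both sides of 0 for IgG.

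By input level, the share of Zfp genes called higher was 20 of 50 (40.0%) from 6.5 to 7, 14 of 39 (35.9%) from 7 to 7.5, 11 of 36 (30.6%) from 7.5 to 8, 7 of 23 (30.4%) from 8 to 9 and 0 of 10 at 9 or more, where 0 were higher at an unadjusted p under 0.05 too. Other genes in the same steps had 15.3%, 16.7%, 18.2%, 17.7% and 12.8% called higher. The median differences of the Zfp genes were 0.52, 0.39, 0.39, 0.22 and 0.08, and those of the other genes 0.18, 0.19, 0.20, 0.15 and 0.04. Across the 158 genes the difference and the input level correlated at a Pearson r of -0.26 and a Spearman rho of -0.19. These values come from the same arrays and genes are not independent, so they are a description.

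**Figure D5:**
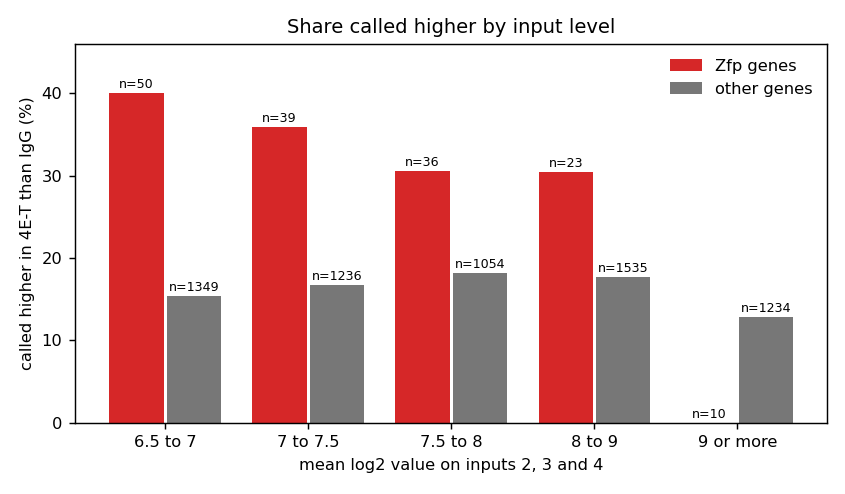
Percentage of genes called higher in 4E-T than in IgG (vertical axis) in 5 steps of the mean log2 input level (horizontal axis), for Zfp genes and other genes, with the number of genes above each bar. The Zfp share is 40.0% in the lowest step and 30.4% from 8 to 9, above the 15.3% and 17.7% of other genes, and 0 of 10 in the highest step against 12.8%.

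The 3 Zfp genes with the brightest input probe sets did not pass the test. Zfp526 had 11.4, 11.3 and 11.4 on IgG 2, 3 and 4 and 10.5, 11.2 and 11.2 on 4E-T 1, 2 and 3, a difference of -0.21 ± 0.14 (adjusted p = 0.426). A second, dimmer probe set of Zfp526 gave 0.96 on the 8 arrays, against -0.15 for the one used. Zfp706 differed by -0.30 ± 0.15 (adjusted p = 0.269) and Zfp955b by 0.04 ± 0.16 (adjusted p = 0.925), and Zfp955b took the opposite sign with group alone and without 4E-T 2 or IgG 3. Of the 3 genes just above the threshold, Zfp773 was called higher (0.97 ± 0.18, adjusted p = 0.00637), as was Zfp866 (0.70 ± 0.18, adjusted p = 0.0294). For Zfp866, leaving out input 1, IgG 3 or either of 4E-T 1 and 2 ended the call (adjusted p up to 0.191). Zfp606 differed by -0.49 ± 0.16 (adjusted p = 0.0834).

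Genes with a role in RNA or at the ribosome had 2 of 8 (25%) called higher and 2 (25%) lower (Zfp326 and Zfp106, above), with a median of 0.19. Beside this and the following role lists stand 32.9% higher and 1.90% lower among the 158 genes. Over all genes the shares were 7.57% and 2.92%. The lists are small and were not tested against the 158 genes. Zfp36, also called tristetraprolin, binds AU-rich elements and speeds the decay of their mRNAs. It had 5.62, 6.79, 6.60 and 6.99 on inputs 1 to 4, 6.48, 6.29 and 6.61 on IgG 2, 3 and 4, and 6.08, 7.34 and 7.14 on 4E-T 1, 2 and 3. At equal scale its 4E-T arrays were highest, and the difference was 0.78 ± 0.16 (adjusted p = 0.00928, and 0.0686 without 4E-T 2).

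Zfp346, which binds double-stranded RNA, had 7.28, 6.82 and 6.98 on IgG 2, 3 and 4 and 6.69, 8.17 and 8.25 on 4E-T 1, 2 and 3. Its array 4E-T 1 stood just below input 1 (6.81), unlike in the other genes called higher. The difference was 0.99 ± 0.22 (adjusted p = 0.0161), and leaving out IgG 3 or either of 4E-T 2 and 3 ended the call (adjusted p up to 0.113). Zfp638, the ribosome quality factor Zfp598, the ribosome biogenesis factor Zfp622 and Zfp385a did not pass the test, with differences of 0.22, -0.01, 0.22 and 0.16. The signs of Zfp598 and Zfp385a changed with the processing.

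Genes known from neural and brain development had 3 of 8 (37.5%, near the 32.9% of the 158) called higher and 0 lower (0 at an unadjusted p under 0.05). Their median was 0.12. Zfp292, a large zinc finger protein whose human counterpart is altered in intellectual disability, had 6.95, 7.52, 7.59 and 7.74 on inputs 1 to 4. It had 8.60, 8.60 and 8.65 on IgG 2, 3 and 4 and 8.94, 9.64 and 9.42 on 4E-T 1, 2 and 3. The 3 groups were apart, with IgG 1.01 above input and 4E-T 1.94 above input. The difference of 4E-T and IgG was 0.93 ± 0.14 (adjusted p = 0.0019).

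Zfp608 had 7.43, 7.47 and 7.47 on IgG 2, 3 and 4 and 7.81, 8.12 and 8.07 on 4E-T 1, 2 and 3, and was higher by 0.68 ± 0.13 (adjusted p = 0.00791). Its paralogue Zfp609, a Nipbl partner in cortical neuron migration, had 8.56, 8.27 and 8.43 and 7.48, 8.45 and 8.50 in the same order. The IgG and 4E-T arrays of Zfp609 overlapped, with a difference of -0.07 ± 0.18 (adjusted p = 0.874) that changed sign on the 8 arrays. The difference between the paralogues was not tested.

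Zfp24, a factor of oligodendrocyte myelination, had 7.62, 7.22 and 7.13 on IgG 2, 3 and 4 and 8.14, 8.03 and 7.96 on 4E-T 1, 2 and 3. It was higher by 0.72 ± 0.16 (adjusted p = 0.0172), and leaving out IgG 3 or either of 4E-T 2 and 3 ended the call (adjusted p up to 0.0808). Zfp521 (-0.36), Zfp423 (0.07), Zfp462 (0.17) and Zfp219 (-0.03) did not pass the test, and the signs of Zfp423 and Zfp219 changed with the processing.

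Of the genes of imprinting and retroelement silencing, 0 of 3 were called in the limma fit, 2 had an unadjusted p under 0.05, and the median was 0.50. All 3 encode KRAB zinc finger proteins. Zfp57, which holds methylation at imprinted loci, had 7.24, 7.39 and 8.02 on IgG 2, 3 and 4 and 6.59, 6.96 and 7.26 on 4E-T 1, 2 and 3. Its difference was -0.37 ± 0.21 (adjusted p = 0.331). Zfp445, a second imprint factor, differed by 0.50 ± 0.17 (adjusted p = 0.0909). Its adjusted p was 0.034 without IgG 2, up to 0.321 without another array and 0.148 on the 8 arrays. Zfp809, which silences retroviruses, differed by 0.55 ± 0.22 (adjusted p = 0.147).

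Genes of chromatin, promoters and mitosis had 3 of 11 (27.3%, against 32.9% of the 158) called higher and 0 lower (1, Zfp207, at an unadjusted p under 0.05). Their median was 0.18. Zfp592 had 7.28, 7.13 and 6.99 on IgG 2, 3 and 4 and 8.03, 8.15 and 8.02 on 4E-T 1, 2 and 3, and was higher by 1.02 ± 0.15 (adjusted p = 0.00203). Its IgG and 4E-T arrays did not overlap. Zfp687 (0.55 ± 0.15, adjusted p = 0.0375) and Zfp532 (-0.25 ± 0.14, adjusted p = 0.328) encode partners of Zfp592 in a complex with Zmynd8. Zfp518b was also called (0.59 ± 0.16, adjusted p = 0.0379). Zfp518a (0.51), Zfp384 (0.48), Zfp827 (0.18), Zfp410 (0.11), Zfp451 (-0.05), Zfp148 (-0.16) and the spindle protein Zfp207 (-0.39) did not pass the test.

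The 30 genes in any of these role lists had 8 (26.7%) called higher and 2 (6.67%) lower, with a median of 0.17. The 128 genes in none of them, mostly known by their number only, had 44 (34.4%) called higher and 1 (0.781%) lower. Their median was 0.38. Over all genes 7.57% were called higher and 2.92% lower. The difference between these groups was not tested.

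Many Zfp genes lie in clusters, and 15 pairs of the 158 genes (27 genes) were next to each other among coding genes in the RefSeq table. In 3 pairs both genes were called higher (Zfp811 and Zfp799, Zfp35 and Zfp24, Zfp773 and Zfp418), in 7 pairs 1 gene was, and in 5 neither. Neighbours could lie far apart: Zfp871 was at 0.00 and Zfp811 at 1.56, Zfp809 at 0.55 and Zfp599 at 2.04, and Zfp454 at 0.94 and Zfp2 at -0.32. Zinc finger genes of a cluster can be close in sequence, so a probe set may read a relative of its gene, and how far it did was not tested.

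For 16 of the 158 genes the array held several probe sets, and some disagreed on the 8 arrays. The difference was 0.00 and 0.67 for Zfp90, 0.15, 0.60 and 0.63 for Zfp330, 0.45, -0.64 and 0.95 for Zfp507, 0.49 and -0.58 for Zfp943, and 1.09 and 0.38 for Zfp937, with the probe set used first in each case. These genes were picked with their values in view.

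The Zfp genes under 6.5 had 61 of 204 (29.9%) called higher and 5 (2.45%) lower, with a median of 0.43. Other genes under 6.5 had 3.43% higher and 1.96% lower. The related Zkscan, Zscan and Zbtb genes had 16 of 65 (24.6%) called higher and 1 (1.54%) lower, with a median of 0.21. Those of them at 6.5 or more had 8 of 21 (38.1%) called higher and 0 lower (1 at an unadjusted p under 0.05). Their median was 0.38. A raised share, 32.9% in the 158 genes, was thus also seen in these groups. No test was made of the difference from the 158 genes.

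A list of KRAB corepressor genes, which also holds general chromatin genes such as Dnmt1, Kdm1a and Hells, had 28 measured. Of these, 4 (14.3%) were called higher and 2 (7.14%) lower, with a median of 0.01. These shares lie near the 16.2% and 5.27% of other genes at 6.5 or more, and the difference from the Zfp genes was not tested. The list was not filtered by input level, and Dnmt3b (5.54) and Morc2a (6.46) lay under 6.5. The 2 lower genes were Trim28, the corepressor that binds the KRAB domain (-0.57 ± 0.14, adjusted p = 0.0275), and Cbx5, a heterochromatin protein that binds Trim28 (-0.60 ± 0.15, adjusted p = 0.0273). The higher genes were Uhrf1 (1.11 ± 0.25, adjusted p = 0.0156), Atf7ip, the partner of Setdb1 (0.73 ± 0.15, adjusted p = 0.00932), Mbd3 (0.61 ± 0.18, adjusted p = 0.0483) and Smarcad1 (0.57 ± 0.16, adjusted p = 0.0432). Each of these 6 calls was lost without some single arrays: 1 for Atf7ip (4E-T 2), 2 for Uhrf1 (4E-T 2 and 3), 4 for Cbx5, 6 each for Trim28 and Smarcad1 and 8 for Mbd3, with adjusted p-values up to 0.218.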

How the data were processed

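Total RNA and RNA precipitated with 4E-T or IgG antibodies was measured on 10 arrays. The deposited values are log2 signals, which per the submitters' processing notes the authors computed by RMA (Affymetrix Expression Console). Versions and the probe sets' genome build are not given in the sources used here. RMA equalises arrays, so the total RNA recovered is not measured. Of 41345 probe sets, 23521 had 1 symbol, 1814 several and 16010 none. The brightest single-symbol probe set of each gene was kept, which left 22180 genes.

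Differences were fitted in R 4.3.3 by limma 3.58.1, using lmFit, eBayes and Benjamini-Hochberg adjustment over all genes. The terms were group and the lower set, defined by an array median over all probe sets under 4. The labels name no such set, and what put its arrays on a lower scale was not tested. The script was tested on simulated data. Summaries and figures used Python 3.11.15, pandas 2.3.3 and matplotlib 3.10.9. The number of arrays limits the precision. The genes, lists, tests and the set term were chosen with earlier results of these data known. Named genes were the 12 highest and 12 lowest called differences, the 3 brightest inputs, 3 on each side of the threshold and the role lists. Alternatives changed the set term, arrays, normalization, replicate block, dim-gene filter (mean of 5), eBayes settings, probe sets and threshold (6 or 7). Protein features were not analysed here. Deviations from the group means of same-numbered arrays correlated at 0.623, 0.24 and 0.277 between 4E-T and input. The 0.623 is of number 1, where both arrays belong to the lower set. All 3 pairs passed 0.1, but so did arrays of unlike number, which reached 0.269. These values therefore do not tell same-numbered arrays from others. The values were -0.023, 0.0798 and 0.318 between IgG and input, and -0.0672 and 0.0224 between 4E-T and IgG, which share 2 numbers. The fit used has no block. The 4E-T over input median was 0.58 with the block and 0.59 without it.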

Additional observations from a re-analysis of the deposited data

Results flagged for a closer look

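Among the named Zfp genes, 9 had an input array far from the other 3, with a gap of 0.84 to 0.94 of the range of the inputs. How often chance gives such a gap was not tested. Input 1 was the low array for 7 of them and belongs to the lower set. Its values were 7.80 for Zfp35, 7.04 for Zfp553, 5.89 for Zfp219, 6.39 for Zfp57, 7.62 for Zfp410, 5.59 for Zfp384 and 6.28 for Zfp827. Input 4 was the high array for Zfp599 at 7.77 and for Zfp521 at 8.81. IgG and 4E-T, with 3 arrays each, were not examined in this way.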

How the results depend on the processing

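For 4E-T over IgG, the median of the Zfp genes minus that of other genes at or above the same input level was 0.19. It was 0.14 to 0.24 under every alternative run. With group alone, 16 Zfp genes were called higher and 0 lower, the Zfp median was 0.19 and IgG over input 0.35, and other genes of the level had 88 higher, 67 lower and a median of 0.0044. With quantile normalization these were 32 and 7, 0.17 and 0.36, and 514 higher with a median of -0.0089. With arrays centred on their medians, 1 Zfp gene was lower, and other genes had 680 higher, 180 lower and a median of 0.20. The filter on dim genes gave 7 lower, and eBayes with trend and robust settings 5. A threshold of 7 gave 32 higher of 108. In the fits without 1 array, Zfp genes had 30 to 52 called higher and 1 to 4 lower, medians of 0.32 to 0.38 over IgG, 0.57 to 0.60 for 4E-T over input and 0.17 to 0.26 for IgG over input. Other genes had 400 to 1045 higher and 126 to 327 lower, with medians of 0.11 to 0.17. The lowest counts of Zfp genes called higher came without 4E-T 2 (30) and 4E-T 3 (31). The cause of these shifts was not tested. With the replicate block, which contains the lower set as number 1, 51 Zfp genes were called higher and 2 lower, with a median of 0.36, and Zfp106, Zfp687 and Zfp334 lost their calls. The check of the pairing is given with the processing. Signs changed for genes that were not called: Zfp526 was 0.35 as the mean of probe sets. Zfp955b was -0.064 with group alone and -0.046 to 0.12 without 1 array (below 0 without 4E-T 2 or IgG 3). Zfp598 was 0.00019 on the 8 arrays, 0.10 with centring and -0.10 to 0.12 without 1 array. With group alone and quantile normalization, Zfp385a was -0.028 and -0.076, Zfp423 -0.048 and -0.10, Zfp410 -0.014 and -0.059, and Zfp827 -0.034 and -0.086. Without 1 array, Zfp423 was -0.0014 to 0.12 and Zfp451 -0.12 to 0.0082. Zfp609 was 0.058 on the 8 arrays and -0.17 to 0.058 without 1 array. Zfp219 was 0.016 with centring, 0.010 with the block and -0.12 to 0.080 without 1 array.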
